A study of Mus musculus with 6 samples.

Results

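Loss of GCN5 was examined within 1 line of immortalized mouse embryonic fibroblasts, called line A. The comparison rests on 4 of the 6 arrays of the series, 2 of PCAF-/-;GCN5+/- and 2 of PCAF-/-;GCN5-/- cells of line A, and covers all 45037 probe sets that are not controls. Fibroblasts are connective tissue cells that make matrix. On these Affymetrix expression arrays each probe set pools short probes of a transcript, and its value here is a log2 signal, so a difference of 1 is a 2-fold change. All cells, the GCN5+/- controls included, lacked PCAF, the product of Kat2b. The series' design describes a conditional GCN5 allele (gene Kat2a) and retroviral delivery of either Cre recombinase, the enzyme that cuts such an allele out, or the vector; infected cells were selected with puromycin. The labels do not name the virus, and the design gives both infections the same genotype, so GCN5+/- is read here as vector and GCN5-/- as Cre, and virus and genotype changed together. The 2 arrays of a genotype are duplicate RNAs of the same line, and separate cultures are not stated. The p-values therefore measure only the spread between duplicate RNAs, which may be technical, and do not speak for other lines. A separately immortalized line, line B, has 1 array per genotype. Its difference has no replicate and no test, and it serves only to show which changes of line A were seen again.

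GCN5 and PCAF are closely related lysine acetyltransferases that can partly stand in for each other, and each is the catalytic subunit of the coactivator complexes SAGA and ATAC, which acetylate histones at active genes. Much of what follows concerns the interferon system. In it, sensors of foreign or misplaced nucleic acid switch on interferon genes, secreted interferon signals through its receptor, Janus kinases and STAT and IRF transcription factors, and these bind a short promoter element and raise antiviral effectors and antigen presentation genes.

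Over the 6 arrays the log2 signals lay between 3.13 and 15.2 and the array medians between 7.40 and 7.45. Duplicates of line A differed with an SD of 0.219 in GCN5+/- and 0.211 in GCN5-/- cells over all probe sets, against 0.465 between a GCN5+/- array of line A and that of line B. The median change over all probe sets was 0.01. Of 11 fibroblast markers, Vim, Fn1, Col1a1 and Col1a2 were among the strongest signals, with Vim at 14.68, 14.65, 14.75 and 14.70 on the line A arrays. Thy1 and Lum, on the same list, were below the array medians in line A, at 6.19 and 6.05 and at 6.43 and 6.45 in GCN5+/- arrays, and were higher in GCN5+/- cells of line B, at 9.54 and 10.59. The 5 other marker lists, for macrophages and leukocytes, epithelium, endothelium, nerve and skeletal muscle, are given beside the results they move with.

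The targeted gene was read first. At Kat2a probe set 1422972_s_at the GCN5+/- arrays had log2 signals of 9.31 and 10.07 and the GCN5-/- arrays 7.97 and 7.85. The 2 genotypes did not overlap, which was also true of 44.5% of all probe sets, and the fall was 1.78 ± 0.22 (SE; a change of -1.78, limma adjusted p = 0.00338). Line B went from 11.51 to 7.75, a difference of -3.76, so the GCN5-/- arrays of both lines ended at nearly the same signal while their starting signals differed. Probe set 1422971_at had 8.68 and 8.68 against 8.23 and 8.01 (change -0.56 ± 0.14, limma adjusted p = 0.0587), and -1.11 in line B. The third, 1426783_at, was higher in GCN5-/- cells of line A by 0.47 ± 0.09 (limma adjusted p = 0.0265) and lower by 0.41 in line B (difference -0.41). Its call was lost without any 1 of 3 arrays (adjusted p between 0.105 and 0.137) and with array medians subtracted (0.0514). Which of these probe sets lie in the deleted part was not analysed here, and probes that lie elsewhere in the gene would not test the deletion. The 3 probe sets of Kat2b, already knocked out in every sample, had changes of 0.27, 0.09 and 0.18 with no call (limma adjusted p = 0.536, 0.845 and 0.619).

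In line A, 2190 of 45037 probe sets (4.86%) were called at an adjusted p under 0.05 by limma with Benjamini-Hochberg adjustment. Of these, 1044 were higher (2.32%) and 1146 lower (2.54%) in GCN5-/- cells, for 705 and 690 named genes. Changes of at least 2-fold were called at 269 higher (0.597%) and 210 lower (0.466%) probe sets, for 162 and 127 named genes. The rises reached further than the falls, with a median of 1.57 against -1.30 among the probe sets past 2-fold. The count rests on few arrays: leaving out GCN5+/- replicate 1 gave 1372 calls, GCN5+/- replicate 2 gave 1220, GCN5-/- replicate 1 gave 1253 and GCN5-/- replicate 2 gave 917. A test without moderation across probe sets, with 2 residual degrees of freedom, called 0, with 4996 at an unadjusted p under 0.05.

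More of the rises than of the falls were seen again in line B at 2-fold. All but 4 of the 269 rises past 2-fold (265) had the same sign in the line B pair, 152 of them (56.5%) were at least 2-fold there too, and 50 (18.6%) lay within 0.5 of no difference. Of the 210 falls past 2-fold, 170 (81.0%) had the same sign, 33 (15.7%) were at least 2-fold in line B and 116 (55.2%) lay within 0.5. The background in the line B pair was 0.575% of all probe sets at least 2-fold higher, 0.226% at least 2-fold lower and 94.9% within 0.5. The median difference in line B was 1.14 over the rises and -0.41 over the falls. Over all 2190 calls, 1894 (86.5%) had the same sign in both lines, against 59.5% of all probe sets. Across the 269 rises the changes in the 2 lines correlated at r = 0.575, and across the 210 falls at r = 0.0642; these are descriptions across probe sets, which are not replicates. Whether the lines differed was tested as the interaction of genotype and line over the 6 arrays, with a residual spread that comes from the line A duplicates alone. It was called at 27 of 45037 probe sets (0.06%), 16 with a larger value in line B and 11 with a smaller one, and 2853 had an unadjusted p under 0.05. Of these 27, 11 were kept with quantile normalization, 13 with a filter on low signals (19 entered) and 2 without a variance trend, 1 probe set each of Xaf1 and Fmod. The scatter of line A change against line B difference shows the rises spread along the line of equal change and most falls lying flat near 0.

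**Figure D1:**
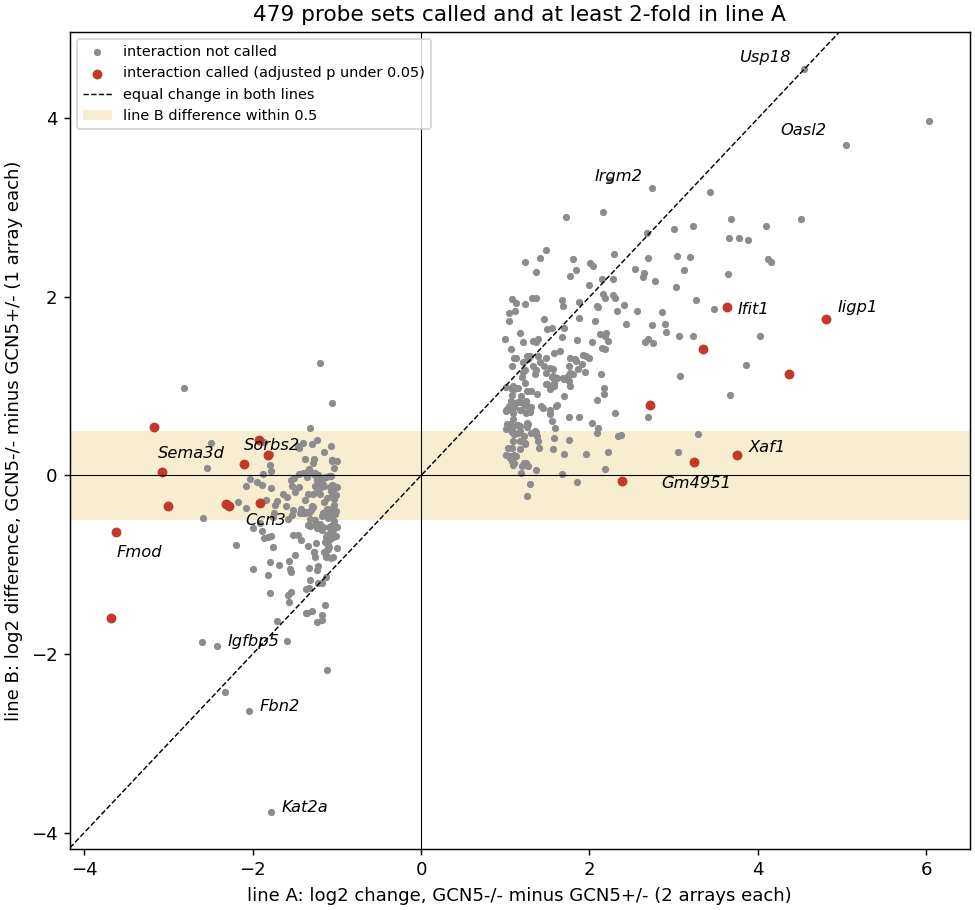
Each point is 1 of the 479 probe sets called and at least 2-fold changed in line A; the x axis is the log2 change in line A (fit over 2 arrays per genotype) and the y axis the log2 difference of the single line B pair, both GCN5-/- minus GCN5+/-. Of the 269 rises, 152 reach 1 or more on the y axis, while 116 of the 210 falls lie in the shaded band between -0.5 and 0.5; red points are those whose difference between lines was called.

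The interferon-stimulated effectors, the antiviral end of the pathway, rose in line A at 24 of 27 measured genes and fell at none, where 3.57% of the 18193 named genes measured were called higher and 3.33% lower (1 probe set per gene). Their median change was 1.58 in line A and 1.0 in line B, against 0.03 and -0.01 over all named genes. The shares of all named genes called are the background for every list count that follows. Ifitm1, Ifitm2 and Samhd1 were the members not called, with changes of 0.18, -0.04 and 0.26. Usp18, which strips Isg15 from proteins and dampens the interferon receptor, had log2 signals of 8.09 and 8.28 in GCN5+/- and 12.67 and 12.81 in GCN5-/- arrays. It rose by 4.55 ± 0.11 (SE; 23.4-fold, limma adjusted p = 1.64e-06) and was higher in line B by the same 4.55. Oasl2, related to the oligoadenylate synthetases, rose by 5.04 ± 0.21 (limma adjusted p = 9.84e-06), from 6.97 and 7.66 to 12.23 and 12.48, and was higher by 3.70 in line B. This was the largest rise among named genes; an unnamed probe set, 1423555_a_at, changed by 6.03 in line A, with 3.97 in line B. Ifit3, a member of the IFIT family that binds viral RNA, rose by 4.09 ± 0.12 (limma adjusted p = 1.90e-06), from 8.39 and 8.64 to 12.59 and 12.63. Rtp4, an interferon-induced chaperone of membrane receptors, went from 8.69 and 8.96 to 12.50 and 12.51, a rise of 3.68 ± 0.12, and was higher by 2.88 in line B.

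Further genes named here rose in line A with line B differences that ranged from 0.47 to 2.77. Among them Ddx60 is on none of the interferon lists. Oas1a, an enzyme that makes the oligoadenylates which activate the ribonuclease RNase L, rose by 4.03 ± 0.22 in line A and was higher by 1.56 in line B. Oas2 of the same family rose by 3.29 ± 0.22 and was higher by 0.47. Rsad2, which encodes the antiviral enzyme viperin, rose by 3.48 ± 0.12 and was higher by 1.86. Ifit1 rose by 3.63 ± 0.12, from 8.99 and 9.32 to 12.76 and 12.81, and went from 9.92 to 11.80 in line B; the smaller difference in line B was called (interaction limma adjusted p = 0.0445; 0.0813 with quantile normalization, and 0.0731 and 0.110 without GCN5-/- replicate 1 and replicate 2). For Oas1a, Oas2 and Rsad2 the difference between the lines was not called (interaction limma adjusted p = 0.0969, 0.0593 and 0.0593). Ddx60, a helicase linked to RNA sensing, rose by 3.89 ± 0.28 and Lgals3bp, a secreted glycoprotein, by 3.00 ± 0.12, with line B differences of 2.64 and 2.77.

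Upstream of the effectors the pattern was narrow. Of 21 interferon ligands, receptors, kinases and signalling factors, only Irf9, Irf7 and Stat2 were called, all higher. Irf9, a DNA-binding factor of the interferon response, went from 8.87 and 9.10 to 10.99 and 11.06 in line A, a rise of 2.04 ± 0.12 (limma adjusted p = 6.64e-05), and from 8.56 to 10.91 in line B. Irf7, the factor that drives most interferon alpha genes, rose by 2.87 ± 0.18 and Stat2 by 2.13 ± 0.15, with line B differences of 1.83 and 1.58. The ligand genes Ifnb1, Ifna4 and Ifng had changes of 0.09, 0.21 and 0.15 in line A and were not called; their signals on the 2 GCN5+/- arrays were 6.36 and 6.14 for Ifnb1, 4.80 and 4.87 for Ifna4, and 4.70 and 4.74 for Ifng. The receptor chains Ifnar1, Ifnar2, Ifngr1 and Ifngr2 had changes of -0.51, -0.18, -0.11 and -0.12, and none of these was called.

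Sensors of nucleic acid divided. Ddx58, which encodes the RNA sensor RIG-I, rose by 1.88 ± 0.12 in line A and was higher by 1.94 in line B. Ifi204, a DNA sensor of the interferon-inducible p200 family, rose by 3.23 ± 0.14, from 5.68 and 5.93 to 8.97 and 9.10, and was higher by 2.80 in line B. Zbp1, a sensor of Z-form nucleic acid, rose by 3.85 ± 0.22 and was higher by 1.24 in line B, and Dhx58, the RIG-I relative LGP2, rose by 3.07 ± 0.14 and was higher by 1.12. In all, 8 of 16 sensors and adaptors were called higher and none lower; among those not called, the adaptors Mavs, Myd88 and Ticam1 had changes of 0.17, 0.00 and -0.01. The list's median was 0.46 in line A and 0.58 in line B.

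All 9 measured interferon-inducible GTPases rose, a family that attacks the membranes around intracellular microbes; the median was 2.20 in line A and 1.75 in line B. Iigp1 rose most, by 4.81 ± 0.15 (limma adjusted p = 2.43e-06), from 7.06 and 7.43 to 12.08 and 12.03. In line B it went from 6.02 to 7.77, and this smaller difference was called (interaction limma adjusted p = 0.0129); its second probe set gave 4.37 in line A and 1.13 in line B. Gbp3, a guanylate-binding protein, rose by 3.77 ± 0.19, Irgm2 by 2.75 ± 0.18 and Igtp by 2.70 ± 0.12, with line B differences of 2.66, 3.22 and 2.44. Probe sets of such gene families can also bind near-identical copies, so the split among family members is uncertain, as it is for the class I genes.

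Antigen presentation by MHC class I, the display of peptides from inside the cell to killer T cells, rose at 12 of 15 genes. H2-K1, a class I heavy chain, went from 11.52 and 11.58 to 14.12 and 14.49, a rise of 2.76 ± 0.11 (limma adjusted p = 6.97e-06), and H2-D1 rose by 2.18 ± 0.08; line B differences were 1.49 and 1.42. Psmb8, a subunit of the immunoproteasome, rose by 2.69 ± 0.19 in line A and was higher by 0.65 in line B. Tap1, a peptide transporter subunit, rose by 2.17 ± 0.13 and was higher by 0.91. Psmb8 was called at 1 of its 2 probe sets, Tap1 at 2 of 4 and H2-D1 at 4 of 9. The chaperones Calr and Canx had changes of -0.07 and -0.09 and were not called, and Pdia3 was the member called lower (-0.23), a call lost without any 1 of 3 arrays. The list's median was 0.91 in line A and 0.50 in line B.

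The DNA in front of these genes is shown because they rose together. Sequences are RefSeq promoter windows of GRCm38.p6, from 250 bases before to 50 after a gene's start, matched by symbol; the bases before the start are printed, with matches in capitals. The core of the interferon-stimulated response element was searched on both strands as GAAA, any 2 bases and GAAA again. Ifit3 holds 2 matches, 156 and 122 bases before its start, and Ifit1 holds 2, at 104 and 85 bases, all read on the strand opposite to the one printed. Xaf1 rose as strongly in line A but not in line B, and its window holds no match. Of the 79 genes with a window that rose at least 2-fold in both lines, 25 held the core. Of the 24 with a window that rose at least 2-fold in line A with line B within 0.5, 3 held it. Ifit3, Ifit1 and Xaf1 were picked with their values known, and the part of the element in recurrence was not tested.
Ifit3, chr19:34583279-34583528, plus strand: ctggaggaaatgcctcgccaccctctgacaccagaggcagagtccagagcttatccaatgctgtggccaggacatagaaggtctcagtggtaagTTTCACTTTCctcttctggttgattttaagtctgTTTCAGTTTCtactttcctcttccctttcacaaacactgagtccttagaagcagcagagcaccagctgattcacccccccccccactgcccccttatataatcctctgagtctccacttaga
Ifit1, chr19:34640639-34640888, plus strand: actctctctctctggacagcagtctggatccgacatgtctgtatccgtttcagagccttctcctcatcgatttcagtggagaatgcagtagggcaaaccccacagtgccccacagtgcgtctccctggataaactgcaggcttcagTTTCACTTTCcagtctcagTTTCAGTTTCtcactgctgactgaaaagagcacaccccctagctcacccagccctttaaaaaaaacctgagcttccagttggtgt
Xaf1, chr11:72301379-72301628, plus strand: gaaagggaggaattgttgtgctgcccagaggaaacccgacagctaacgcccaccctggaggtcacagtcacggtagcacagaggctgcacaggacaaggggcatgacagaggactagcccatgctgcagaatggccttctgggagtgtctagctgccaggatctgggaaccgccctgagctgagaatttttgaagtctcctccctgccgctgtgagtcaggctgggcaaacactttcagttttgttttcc

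Of 100 named genes that were, at any probe set, called and at least 2-fold higher in line A and at least 2-fold higher in line B, 79 had a window, and 25 of these (31.6%) held the response element core. The share was 3.63% over the 14452 measured genes with a window and 3.44% over all 32851 windows. Among the 34 genes at least 2-fold higher in line A whose line B difference lay within 0.5, 24 had a window and 3 (12.5%) held it. Genes that fell held it at about that share, 2 of 17 (11.8%) of those at least 2-fold lower in both lines and 6 of 57 (10.5%) of those lower in line A with line B within 0.5. A match is a description of letters, and no binding was measured. Of the 25 genes, 1 had a STAT dimer match (TTCNNNGAA) overlapping the core. Shares of the STAT, NF-kB (GGGA, any 4 bases, CC) and Myc E-box (CACGTG) letters among the 79 were 13.9%, 27.8% and 5.06%, against 8.57%, 28.4% and 10.2% of measured genes. Among the 17 genes lower in both lines these shares were 5.88%, 47.1% and 11.8%. Among the 57 lower in line A with line B within 0.5 they were 22.8%, 29.8% and 8.77%. Matches of 9 of the 25 are shown in the direction of the motif with 5 bases on each side, to set their flanks beside each other; these genes were chosen after their values were seen.
Stat2, chr10:128270271-128270290, minus strand: gaaagGAAACTGAAAccagg
Rsad2, chr12:26456558-26456577, plus strand: tttctGAAAATGAAAgttgg
Bst2, chr8:71537582-71537601, minus strand: aaaatGAAACTGAAAggctg
Gbp3, chr3:142559994-142560013, minus strand: aaataGAAACTGAAActgtg
Gbp7, chr3:142530278-142530297, minus strand: gaactGAAACTGAAActgca
Igtp, chr11:58199517-58199536, plus strand: gaactGAAACTGAAAgctgt
Irgm2, chr11:58214908-58214927, plus strand: gaactGAAACTGAAAgctgt
Ddx60, chr8:61928029-61928048, plus strand: gaatgGAAACCGAAActtaa
Cxcl10, chr5:92349088-92349107, minus strand: ctttgGAAAGTGAAActtac
The stretches of Igtp and Irgm2, neighbouring GTPase genes on chromosome 11, are identical.

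Chemokines, which draw leukocytes, rose at 9 of 18 genes in line A, and the medians of the list were 0.66 there and 0.42 in line B. The background was 3.57% of all named genes called higher and 3.33% lower. Cxcl10, an interferon-induced chemokine for T cells, went from 9.19 and 9.49 to 12.61 and 12.32, a rise of 3.13 ± 0.14 (limma adjusted p = 1.18e-05), and was higher by 2.30 in line B. Cxcl1, a neutrophil chemokine, rose by 1.68 ± 0.09, Ccl7 by 1.39 ± 0.10 and Ccl2, a monocyte chemokine, by 1.12 ± 0.08, with line B differences of 1.90, 1.53 and 1.84. Cxcl12 (-0.26) and Cxcl15 were the 2 called lower. Cxcl15 fell by 2.59 (a change of -2.59 ± 0.20, limma adjusted p = 0.000259), from 9.93 and 10.43 to 7.79 and 7.37; line B started at 7.55 and ended at 7.08. Of 26 NF-kB and cytokine genes 6 rose and 1 fell, with medians of 0.22 and 0.28. Il6, an inflammatory cytokine, rose by 1.24 ± 0.11 in line A and was higher by 2.39 in line B. Ptgs2, a prostaglandin synthase, rose by 1.50 ± 0.14 and Csf1, a macrophage growth factor, by 0.46 ± 0.06, with line B differences of 1.03 and 0.51. Il1rn, the interleukin-1 receptor antagonist, fell by 1.07 (a change of -1.07 ± 0.17, limma adjusted p = 0.0113). None of 9 complement genes was called by limma, and 1 had an unadjusted p under 0.05.

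Beside these immune genes, 1 of 8 macrophage and leukocyte markers was called higher in line A, and 3 had an unadjusted p under 0.05. The called marker was Cd53, a membrane protein of leukocytes, which went from 9.66 and 9.69 to 10.54 and 10.44 (0.81 ± 0.11). It was higher by 0.94 in line B. The log2 of the list's summed signal was 11.2 and 11.3 in GCN5+/- and 11.8 and 11.7 in GCN5-/- arrays. Mean line A signals of the 8 members ranged from 4.63 to 10.08. Ptprc and Itgam were near the low end of the scale, at 4.63 and 4.56 for Ptprc and 4.91 and 4.94 for Itgam in GCN5+/- arrays. Their changes were 0.07 and 0.04, and the signals of the other members are not given here. Of 7 epithelial, 6 endothelial and 5 skeletal muscle markers none was called by limma, with 0, 2 and 0 at an unadjusted p under 0.05, and of 6 neural markers Tubb3 fell (-0.73 ± 0.12), a call lost without any 1 of 3 arrays. What part other cells had in these results was not tested.

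Of the genes at least 2-fold higher in line A, 48 were on the 5 interferon and antigen presentation lists and 112 were not (1 probe set per gene). In line B 33 of the 48 (68.8%) and 59 of the 112 (52.7%) were at least 2-fold higher as well, and 4 and 25 (22.3%) lay within 0.5. The medians were 2.23 in line A and 1.41 in line B for the 48, and 1.32 and 1.06 for the others. Of the 15 named genes with the largest rises 12 were on these lists, and of the 10 that recurred most strongly 8 were; those lists were drawn up with results of these data known. Parp14, an interferon-induced ADP-ribosyltransferase, was nearly the same in both lines, with a rise of 2.68 ± 0.15 in line A and a difference of 2.72 in line B.

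Of the named genes called and at least 2-fold higher in line A, 34 had a line B difference within 0.5 at a probe set. For 2 of them, Xaf1 and Gm4951, the difference between the lines was also called, which meets the rule for staying in line A, a line A change of at least 1, a line B difference within 0.5 and a called difference between the lines. Xaf1, an interferon-induced gene linked to cell death, had 8.14 and 8.29 in GCN5+/- and 11.92 and 12.02 in GCN5-/- arrays of line A. It rose by 3.76 ± 0.12 (13.5-fold, limma adjusted p = 2.43e-06), while line B had 5.92 and 6.15, a difference of 0.23 (interaction limma adjusted p = 0.00403). Gm4951, an interferon-inducible GTPase gene by its family, went from 5.53 and 5.47 to 8.47 and 9.01 in line A, a rise of 3.24 ± 0.18, and had 5.51 and 5.66 in line B (interaction limma adjusted p = 0.0218, and 0.0536 with quantile normalization). Ifi207, of the p200 family, rose by 3.67 ± 0.21 in line A and was higher by 0.90 in line B, but the difference between the lines was not called (interaction limma adjusted p = 0.0555).

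**Figure D2:**
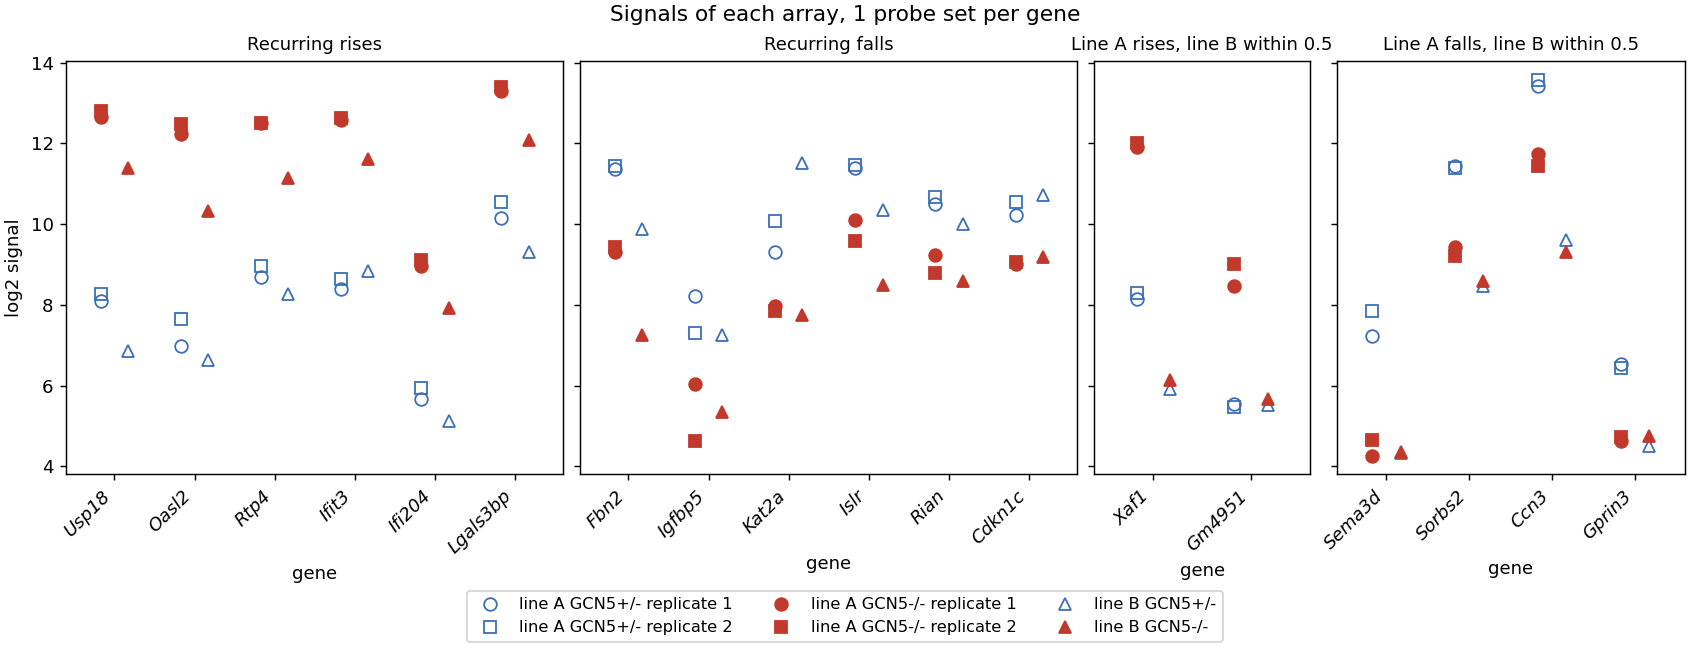
The log2 signal (y axis) of every array is drawn for genes that recurred in line B and for genes that stayed in line A, with open symbols for GCN5+/- and filled symbols for GCN5-/- and triangles for line B. Usp18 rises by 4.55 in both lines, Xaf1 rises in line A but sits at 5.92 and 6.15 in line B, and Sema3d, Sorbs2, Ccn3 and Gprin3 fall in line A while both line B arrays lie near or below the GCN5-/- level of line A.

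Genes that fell in line A and were at least 2-fold lower in line B had varied roles. Fbn2, which encodes a fibrillin of elastic microfibrils, had 11.38 and 11.45 in GCN5+/- and 9.32 and 9.43 in GCN5-/- arrays. It fell by 2.04 (a change of -2.04 ± 0.11, limma adjusted p = 2.73e-05), and line B went from 9.88 to 7.24, a difference of -2.64. Islr, a secreted or membrane protein of mesenchymal cells, fell by 1.59 (-1.59 ± 0.16) with a line B difference of -1.85. Cck, a peptide hormone gene, fell by 1.55 (-1.55 ± 0.13) with -1.30, and Aspn, a small leucine-rich matrix protein, by 1.80 (-1.80 ± 0.21) with -1.31. Ror1, a receptor for Wnt ligands, fell by 1.22 (-1.22 ± 0.21) with -1.21, a call lost without GCN5+/- replicate 2 (adjusted p = 0.0584). In all, 20 named genes were at least 2-fold lower in both lines, against 92 at least 2-fold higher (1 probe set per gene, that of smallest p).

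Imprinted genes, of which only the copy from 1 parent is active, fell at 11 of 21 and rose at none, against the background of 3.33% called lower. Their median was nearly equal in the lines, -0.54 and -0.51, and all 11 called genes had the same sign in line B. Igf2, a fetal growth factor expressed from the paternal copy, went from 13.66 and 13.80 to 12.38 and 12.50, a change of -1.29 ± 0.07 (limma adjusted p = 2.73e-05), and from 10.59 to 9.07 in line B. Cdkn1c, a maternally expressed brake on the cell cycle, went from 10.22 and 10.56 to 9.01 and 9.06 (-1.35 ± 0.14) and from 10.73 to 9.18 in line B. Rian, a maternally expressed noncoding RNA of the Dlk1-Meg3 region, changed by -1.71 ± 0.18 in line A and -1.63 in line B at its brightest probe set. Dlk1, Meg3 and Mirg of the same region changed by -0.94, -0.99 and -1.14 in line A and by -1.74, -1.17 and -1.45 in line B. Mest, a paternally expressed gene, changed by -1.82 ± 0.20 in line A and -0.69 in line B, and Peg3 by -1.71 and -0.29. Between 7 and 10 members were called when 1 array was left out, the fewest without GCN5-/- replicate 2.

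Members of the IGF axis fell at some probe sets and not at others. Igf1 changed by -0.82 ± 0.13 in line A and -0.98 in line B, a call lost without GCN5+/- replicate 2 or GCN5-/- replicate 2 (adjusted p = 0.0610 and 0.0894). Igfbp5, a binding protein for IGFs, went from 8.22 and 7.29 to 6.03 and 4.63 at 1 of its 2 probe sets, a change of -2.43 ± 0.43 (limma adjusted p = 0.0159) with -1.91 in line B. Its duplicates lay far apart, the call was lost without GCN5+/- replicate 1 (adjusted p = 0.0522), and the brighter probe set had a change of -0.15. Igfbp3, another binding protein, went from 10.91 and 12.13 to 8.84 and 9.21, a change of -2.50 ± 0.33, while line B had 6.09 and 6.45, a difference of 0.36. The difference between the lines was not called for Igfbp3 (interaction limma adjusted p = 0.198). Igfbp6 rose by 0.49 ± 0.06 and was at -0.00 in line B. In all, 1 of 12 axis genes was called higher and 4 lower, and 2 to 4 lower with 1 array left out.

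Several of the strongest falls of line A were small in line B. Fmod, which encodes fibromodulin, a small leucine-rich protein that binds collagen, had 10.19 and 10.21 in GCN5+/- and 6.66 and 6.50 in GCN5-/- arrays. It fell by 3.62 (a change of -3.62 ± 0.13, 12.3-fold, limma adjusted p = 5.15e-06), and line B had 5.84 and 5.21, a difference of -0.63 (interaction limma adjusted p = 0.0104). All 6 Fmod probe sets were called lower in line A. Sema3d, a secreted guidance protein, went from 7.22 and 7.84 to 4.26 and 4.65 (-3.08 ± 0.21) and had 4.32 and 4.35 in line B (interaction limma adjusted p = 0.0403). Sorbs2, an adaptor at actin fibres, went from 11.44 and 11.39 to 9.42 and 9.21 (-2.10 ± 0.11) and had 8.46 and 8.59 in line B (interaction limma adjusted p = 0.0192). Of the 4 Sorbs2 probe sets 2 were called lower in line A. Ccn3, a matricellular protein, went from 13.43 and 13.58 to 11.74 and 11.45 (-1.91 ± 0.10) and had 9.62 and 9.31 in line B. Gprin3 went from 6.54 and 6.44 to 4.63 and 4.72 (-1.82 ± 0.12) and had 4.51 and 4.74 in line B. Judged at each gene's probe set of smallest p, Sema3d, Sorbs2, Ccn3 and Gprin3 were the 4 genes that met the rule for staying in line A (interaction limma adjusted p = 0.0445 for Ccn3 and 0.0188 for Gprin3). Fmod missed the rule there but met it at other probe sets. One was 1415939_at, which fell by 3.00 (-3.00) while its line B difference was -0.34 (interaction limma adjusted p = 0.0129). The other Gprin3 probe set, 1439566_at, changed by -3.17 but missed the rule, its line B difference being 0.54. With quantile normalization the interaction was not called for Sema3d (adjusted p = 0.108), Sorbs2 (0.0561) and Ccn3 (0.108, and 0.0658 without GCN5+/- replicate 2). For Gprin3 it was called at the probe set of smallest p (0.0479) and not at the other (0.104).

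For other large falls of line A the line B differences ran from near 0 to past 2-fold, and no difference between the lines was called. Kcnma1, a calcium-activated potassium channel, changed by -2.55 ± 0.23 in line A and 0.09 in line B (interaction limma adjusted p = 0.0797). Mc2r, a melanocortin receptor, changed by -2.07 ± 0.15 and -0.36, and Avpr1a, a vasopressin receptor, by -1.95 ± 0.17 and -0.07. Epha3, an ephrin receptor, changed by -2.20 ± 0.16 and -0.78, Col14a1, a fibril-associated collagen, by -1.99 ± 0.13 and -1.05, and Ccdc68 by -1.92 ± 0.15 and -0.53. Cnmd, the cartilage protein chondromodulin, changed by -2.03 ± 0.34 and -0.04, and Negr1, a neuronal adhesion protein, by -2.08 ± 0.35 and -0.12. In the GCN5+/- array of line B, Kcnma1, Avpr1a, Cnmd and Negr1 had signals of 4.72, 5.07, 4.83 and 4.64. These are near the low end of the scale, which limits what a fall could show there. Mc2r, Epha3, Col14a1 and Ccdc68 had 7.96, 6.10, 7.77 and 8.47 on that array. Negr1 lost its call without GCN5-/- replicate 1 (adjusted p = 0.0631). Only Afap1l2, an adaptor of actin and Src signalling, changed by at least 2-fold in opposite directions, from 8.66 and 9.28 to 7.59 and 7.96 in line A (-1.20 ± 0.22) and from 4.78 to 6.04 in line B. It lost its call without GCN5+/- replicate 2 or GCN5-/- replicate 1 (adjusted p = 0.0604 and 0.0976), and the difference between the lines was not called (interaction limma adjusted p = 0.0899).

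The starting signal of line B moved with this split. Of the 116 falls past 2-fold whose line B difference lay within 0.5, 95 (81.9%) had a GCN5+/- signal in line B at or below the mean GCN5-/- signal of line A. Their GCN5+/- signal was lower in line B than in line A (median of line B minus line A -2.22), for 76 named genes. Of the 33 falls that were at least 2-fold in line B, 6 (18.2%) started that low and the median was -0.43, for 23 named genes. Among rises the medians were 0.13 for the 50 within 0.5 and -0.44 for the 152 that recurred at 2-fold. Falls called in line A are drawn from probe sets that were high in its GCN5+/- arrays, so some offset comes with the choice, and the part of the starting signal in recurrence was not tested. The plots of line B difference against starting signal show falls with a low start crowding the band near 0.

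**Figure D3:**
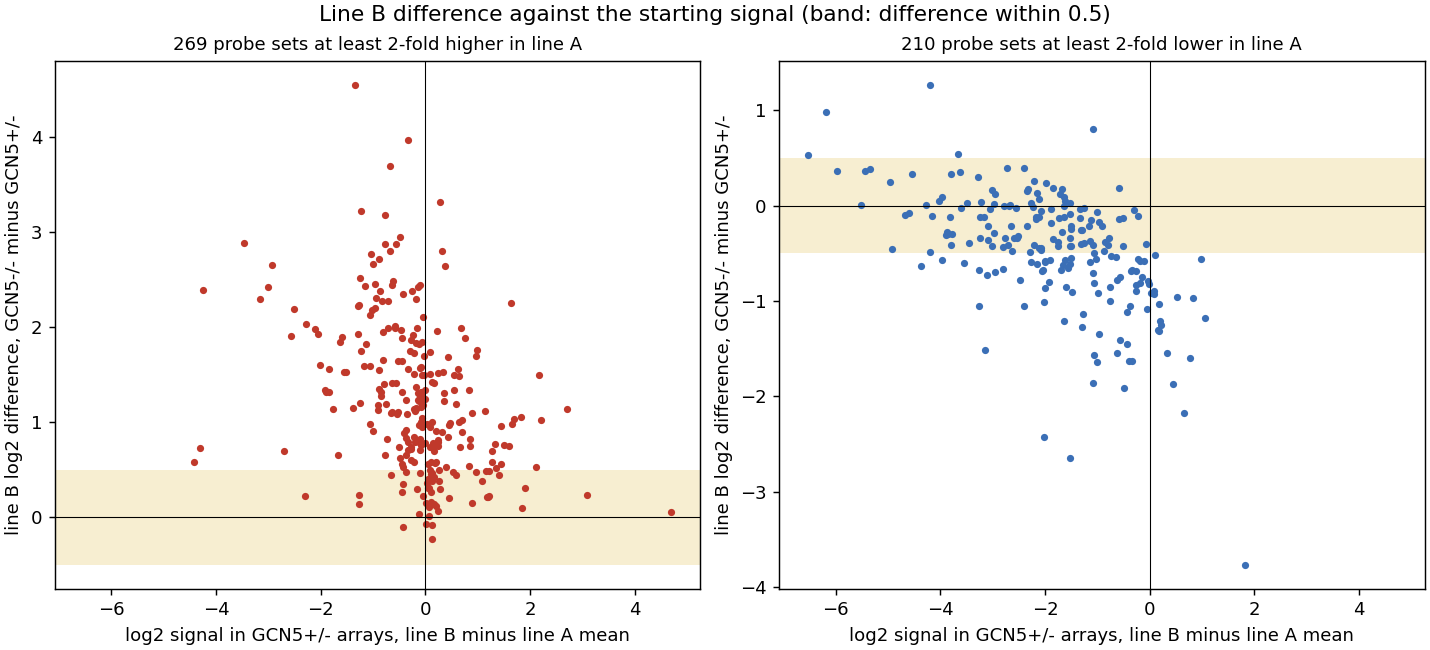
The x axis is the log2 signal of the GCN5+/- array of line B minus the line A GCN5+/- mean, and the y axis the log2 difference of the line B pair, for the 269 rises (left) and 210 falls (right) past 2-fold in line A. In the right panel most points in the shaded band, within 0.5 of no difference, lie left of 0, with a median of -2.22 for the 116 points there, against 0.13 for the 50 points in the band on the left.

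Genes of sterol synthesis fell together. Of 26 genes of cholesterol synthesis and other SREBP targets, 19 fell and none rose, the list's medians being -0.57 (line A) and -0.40 (line B), and all 19 had the same sign in line B. SREBP is the transcription factor that raises these genes when sterols are scarce. Hmgcs1, which makes HMG-CoA early in the pathway, went from 13.48 and 13.46 to 12.50 and 12.38, a change of -1.03 ± 0.06 (limma adjusted p = 5.19e-05), and from 13.24 to 12.68 in line B. Cyp51, a demethylase of lanosterol, changed by -1.05 ± 0.08 and Sqle, the squalene epoxidase, by -0.72 ± 0.05, with line B differences of -0.69 and -0.58. Insig1, which holds SREBP back in the endoplasmic reticulum and is itself a target, changed by -1.07 ± 0.10 and -0.37. Srebf1 and Srebf2, which encode SREBP, had changes of -0.03 and -0.13 and were not called. The count was 12 to 17 with 1 array left out, the fewest without GCN5-/- replicate 2. The letters TCACNCCAC, a sterol regulatory site searched on both strands, were found in 1 of the 20 list members with a window (5%), against 1.46% of measured genes. That member is Hmgcs1, with the match 137 bases before its start, shown here as the sequence before its start.
Hmgcs1, chr13:119690101-119690350, plus strand: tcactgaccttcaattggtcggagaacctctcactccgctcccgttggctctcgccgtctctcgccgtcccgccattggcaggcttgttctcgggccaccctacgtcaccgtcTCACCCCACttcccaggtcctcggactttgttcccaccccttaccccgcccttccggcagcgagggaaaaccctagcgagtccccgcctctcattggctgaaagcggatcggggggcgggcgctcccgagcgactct

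Lipid storage genes went separate ways. Of 22 PPAR targets and lipid storage genes 4 rose and 3 fell, with medians of -0.09 and 0.06. Angptl4, a secreted inhibitor of lipoprotein lipase, rose by 1.69 ± 0.11 in line A and was higher by 1.09 in line B. Only 1 of its 2 probe sets was called. Dgat2, which makes triglyceride, rose by 0.91 ± 0.11 and Plin2, a lipid droplet coat protein, by 0.54 ± 0.07, with 0.17 and 0.49 in line B. Cebpa, a transcription factor of fat cell formation, went from 9.26 and 9.71 to 8.25 and 8.17 (-1.28 ± 0.17) and had a line B difference of 0.14. Cebpd, a related early factor, was not called in line A (-0.16 ± 0.07) but was higher by 0.90 in line B (interaction limma adjusted p = 0.0478; 0.108 with quantile normalization, and between 0.0517 and 0.0968 without any 1 array).

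Matrix genes leaned lower, beside 3.57% of all named genes called higher and 3.33% called lower. Of 22 collagen chain genes 7 fell and 2 rose (medians -0.29 and -0.10), and of 32 other matrix and elastic fibre genes 12 fell and 2 rose (medians -0.26 and -0.15). Col1a1, the main chain of fibrillar collagen, went from 14.71 and 14.73 to 14.36 and 14.35 (-0.37 ± 0.03, limma adjusted p = 0.000391) and was lower by 0.32 in line B (-0.32). Without a variance trend Col1a1 was not called (limma adjusted p = 0.139). Col8a1 changed by -0.48 ± 0.08 in line A and 0.53 in line B, a call lost without GCN5+/- replicate 2 (adjusted p = 0.0693). Col5a3 rose by 0.89 ± 0.14 and differed by -0.10 in line B, a call lost without either GCN5-/- array (adjusted p = 0.0595 and 0.0615). Mfap2, a microfibril protein, changed by -1.22 ± 0.11 and -1.01, and was called at 1 of its 2 probe sets. Lum, which encodes the proteoglycan lumican, changed by -0.79 ± 0.14 in line A, from 6.43 and 6.45 to 5.51 and 5.80, and by -3.11 in line B, from 10.59 to 7.48. The larger fall of Lum in line B was called (interaction limma adjusted p = 0.0275, and 0.0828 with quantile normalization), while its line A call was lost without any 1 of 3 arrays (adjusted p between 0.0510 and 0.0861). Among 11 fibroblast markers 5 fell and none rose, with medians of -0.27 and -0.29; Pdgfrb, a growth factor receptor, changed by -0.79 ± 0.10 and -0.29. The collagen count was 4 to 7 with 1 array left out and the fibroblast marker count 3 to 5.

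Proteases, contractile genes and developmental signals were called in both directions or lower. Over all named genes 3.57% were called higher and 3.33% lower. Of 20 matrix proteases and inhibitors 2 rose and 3 fell (medians -0.02 and 0.04). Mmp14, a membrane protease, changed by -0.97 ± 0.16 and -0.73, and Plaur, the urokinase receptor, rose by 0.66 ± 0.10 with 0.22 in line B, a call lost without GCN5-/- replicate 2 (adjusted p = 0.0639). Of 18 contractile and myofibroblast genes 7 fell and 1 rose (medians -0.18 and -0.05), with 2 to 5 called lower when 1 array was left out. Myl9, a myosin light chain, changed by -0.74 ± 0.11 and -0.58, and Cnn1, an actin-binding protein of smooth muscle, rose by 0.59 ± 0.08 with 0.21 in line B, a call lost without the same array (adjusted p = 0.0513). Of 26 TGF-beta and BMP genes 7 fell and none rose (medians -0.07 and 0.00). Bmp4, a BMP ligand, changed by -0.88 ± 0.09 and -0.92, Id2, a BMP target, by -0.85 ± 0.10 and 0.59, and Smad6, a feedback inhibitor, by -0.65 ± 0.09 and -0.01. For Id2 the difference between the lines was not called (interaction limma adjusted p = 0.0593).

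Of 28 Wnt pathway genes 8 fell and none rose (medians -0.18 and -0.17), and 4 or 5 fell with 1 array left out. Fzd1, a Wnt receptor, went from 12.20 and 12.29 to 11.44 and 11.43 (-0.81 ± 0.08, limma adjusted p = 0.000695) and differed by -1.83 in line B (interaction limma adjusted p = 0.0538). Rspo2 and Rspo3, secreted proteins that strengthen Wnt signals, changed by -0.89 ± 0.09 and -1.52 ± 0.20, with -0.88 and -0.39 in line B. Each was called at 1 of its 2 probe sets. Of 18 ephrin receptors and ephrins 5 fell and 1 rose (medians -0.19 and -0.19). For the Wnt and ephrin counts the background was 3.57% of all named genes called higher and 3.33% lower. Epha7 changed by -1.0 ± 0.14 and -0.58, and Epha1 rose by 1.0 ± 0.13 with 0.16 in line B. With 1 array left out, 2 or 3 ephrin genes were called lower.

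Growth gene lists differed in direction, beside 3.57% of all named genes called higher and 3.33% called lower. Of 30 Myc and ribosome biogenesis genes 11 rose and 1 fell; their medians were 0.30 (line A) and 0.05 (line B). Bop1, which processes ribosomal RNA, rose by 0.79 ± 0.08, Tfrc, the transferrin receptor, by 0.76 ± 0.09 and Rrp9 by 0.62 ± 0.08, with 0.44, 0.44 and 0.04 in line B. Bop1 was called at 1 of its 2 probe sets and Tfrc at 2 of 3. The member that fell was Mycn, a Myc family factor, from 14.31 and 14.52 to 12.88 and 12.80, a change of -1.57 ± 0.07 (limma adjusted p = 1.18e-05), with -0.95 in line B. Of the 3 Mycn probe sets only this 1 was called. With 1 array left out 6 or 7 of the 11 rose. Of 20 cytosolic ribosomal protein genes 5 fell and none rose, by small amounts (median -0.09 in line A and -0.10 in line B). Rpl38 changed by -0.31 ± 0.03 and -0.30, and was not called without a variance trend (limma adjusted p = 0.201). The ribosomal count was 1 to 3 with 1 array left out, and 1 with array medians subtracted.

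Of 36 DNA replication and S phase genes 8 rose and none fell (medians 0.21 and 0.05). Over all named genes 3.57% were called higher and 3.33% lower. Cdt1, a licensing factor, rose by 0.44 ± 0.07 and Mcm6, a helicase subunit, by 0.39 ± 0.06, with 0.13 and 0.29 in line B. None of the 36 was called without GCN5-/- replicate 2, and 3 to 5 without another array. Of 29 G2 and mitosis genes 2 rose, Ube2c and Aurka (medians 0.06 and -0.07), and Aurka lost its call without any of the 4 arrays and Ube2c without 3 of them. Of 25 cell cycle inhibitors and p53 targets 6 fell and 1 rose (medians -0.22 and -0.00). Cdkn2b, an inhibitor of cyclin D kinases, went from 12.41 and 12.58 to 11.98 and 11.92 (-0.54 ± 0.08) and differed by -0.39 in line B. Cdkn1b and Cdkn2c, also inhibitors of these kinases, changed by -0.71 ± 0.14 and -0.50 ± 0.08, with -0.72 and -0.42 in line B, calls lost without 2 and 3 of the arrays. The kinase inhibitor Cdkn1a, a main p53 target, had a change of 0.08 and was not called. With 1 array left out, 2 to 5 inhibitors and targets fell.

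Of 24 hypoxia and glycolysis genes 12 rose and 1 fell, and the medians were 0.27 (line A) and 0.09 (line B). Over all named genes 3.57% were called higher and 3.33% lower. Pfkl, a phosphofructokinase, rose by 0.69 ± 0.07 (limma adjusted p = 0.00104), Bnip3, a mitochondrial target of hypoxia factors, by 0.68 ± 0.08, and Pgk1 and Pkm, enzymes of the lower pathway, by 0.29 ± 0.03 and 0.26 ± 0.03. The line B differences were 0.19, 0.34, 0.16 and 0.07. Without a variance trend Pgk1 and Pkm were not called (limma adjusted p = 0.232 and 0.272). The count was 7 to 10 with 1 array left out, the fewest without GCN5-/- replicate 2. Of 29 oxidative phosphorylation genes 4 rose (medians 0.09 and 0.01) and 1 rose with any array left out; Cycs, cytochrome c, rose by 0.40 ± 0.05 and differed by -0.01 in line B. The plot of list medians sets the 40 lists side by side.

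**Figure D4:**
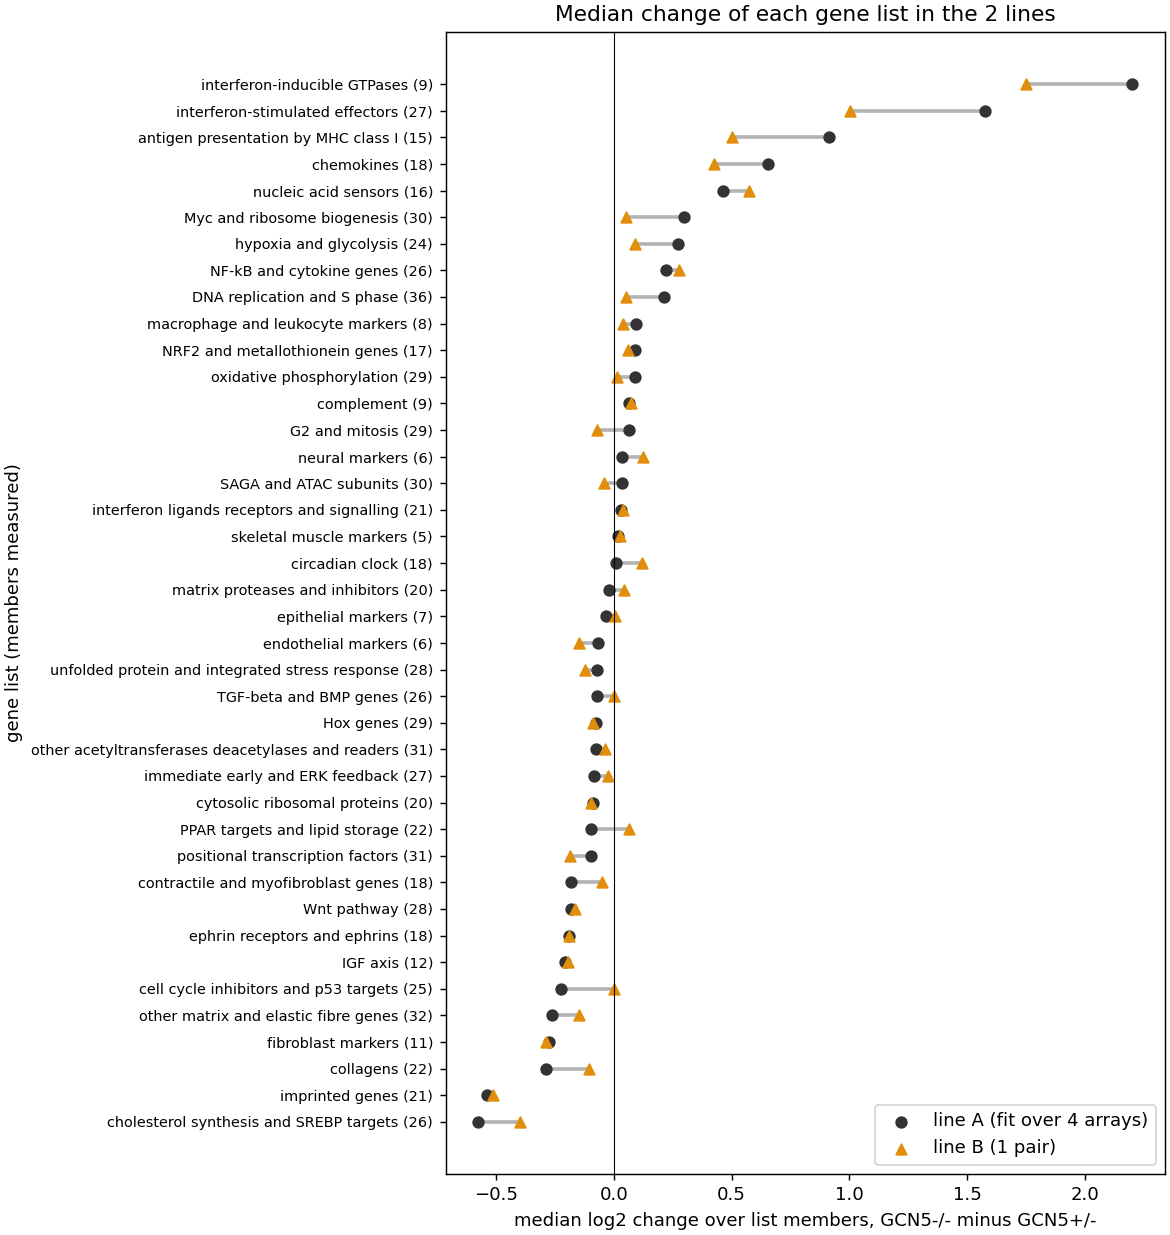
The x axis is the median log2 change over the measured members of each of 40 gene lists (y axis, with the number of members measured), GCN5-/- minus GCN5+/-; circles are the line A fit and triangles the single line B pair. The interferon-inducible GTPases lie furthest right, at 2.20 in line A and 1.75 in line B, and the cholesterol list furthest left, at -0.57 and -0.40.

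Stress and signalling lists held calls in both directions. Calls in either direction came to 18.5% of immediate early and ERK feedback genes and 17.9% of unfolded protein and integrated stress response genes. Of NRF2 and metallothionein genes 29.4% were called. Over all named genes 3.57% were called higher and 3.33% lower, and the background here is both shares added. Of 27 immediate early and ERK feedback genes 4 rose and 1 fell (medians -0.08 and -0.03). Fosl1, an AP-1 subunit, went from 10.33 and 10.40 to 11.66 and 11.59 (1.26 ± 0.09, limma adjusted p = 0.000163) with 0.54 in line B, and Dusp5, a phosphatase that turns off ERK, rose by 0.96 ± 0.10 with 0.48. Of 28 unfolded protein and integrated stress response genes 4 fell and 1 rose (medians -0.07 and -0.12). Pdia6, a protein disulfide isomerase, changed by -0.50 ± 0.05 and -0.48, and Xbp1, a factor of the unfolded protein response, by -0.62 ± 0.09 and -0.54. Of 17 NRF2 and metallothionein genes 4 rose and 1 fell (medians 0.09 and 0.06). Mt1, a metallothionein, changed by -0.44 ± 0.07 and -0.29, and of the 4 rises 0 to 2 were called with 1 array left out. Of 18 circadian clock genes only Dbp was called, with a change of -0.97 ± 0.16 and -0.66, and its call was lost without GCN5-/- replicate 2 (adjusted p = 0.0583).

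Calls in either direction came to 19.4% of positional factors outside Hox, 6.9% of Hox genes and 6.67% of SAGA and ATAC subunits. Over all named genes 3.57% were called higher and 3.33% lower, and the background here is both shares added. Hox genes and SAGA and ATAC subunits were thus called at about the share of all named genes. Of 29 Hox genes, which record position along the body, Hoxc8 and Hoxa7 fell (-0.55 ± 0.09 and -0.49 ± 0.10) and none rose, with -0.12 and -0.41 in line B; Hoxa7 lost its call without any of the 4 arrays. Of 31 other positional transcription factors 6 fell and none rose (medians -0.10 and -0.19), and 1 to 4 fell with 1 array left out. Shox2, a limb factor, went from 11.21 and 11.25 to 10.54 and 10.52 (-0.70 ± 0.09), while line B had 5.67 and 5.64. Apart from the third Kat2a probe set, Taf5l was the member of 30 SAGA and ATAC subunits that was called (0.47 ± 0.11, limma adjusted p = 0.0474), a call lost without any of the 4 arrays (adjusted p between 0.0901 and 0.263). None of 31 other acetyltransferases, deacetylases and readers was called in line A by limma, and 6 had an unadjusted p under 0.05.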

How the data were processed

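Total RNA of 4 line A arrays, and of 2 line B arrays, was measured on Affymetrix arrays. The deposited values are log2 signals per probe set, a scale read from the values themselves. MAS5 (6 samples) and Partek (1 sample) are listed without a role, per the submitters' processing notes. How the values were normalized is not given in the sources used here; scaling that equalizes arrays removes changes shared by most genes, and values near the floor compress folds. Array medians nearly coincided. Depth does not apply to arrays, and their number limits the precision.

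Control probe sets (64 of 45101) were left out. A table of GEO's platform annotation gave 34945 of 45037 probe sets 1 symbol and 932 several, and 9160 are unnamed here; 34741 were matched by Entrez identifier to RefSeq genes of GRCm38.p6. Tests ran in R 4.3.3 with limma 3.58.1 (lmFit, eBayes with a variance trend) over all 45037 probe sets without a level filter, with Benjamini-Hochberg adjustment and a threshold of 0.05. Errors are standard errors of the fit. The residual degrees of freedom were 2 in both fits. The line A fit was tested on simulated data: of 100 probe sets changed by 1 (log2) it recovered 28, and of 100 changed by 2 it recovered 84, with 2 false calls. The interaction fit recovered 41 of 100 at a difference of 2 and 69 of 100 at 3, with 1 false call. Both simulations took each probe set's own duplicate spread as its true spread, and changed far fewer probe sets than were called. Their recovery is therefore not that of the data. There, 269 of 270 probe sets at least 2-fold higher in line A were called, and 210 of 228 at least 2-fold lower.

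The 40 gene lists had 833 of 899 entries measured, 1 probe set per gene (the highest mean signal); the other entries are not analysed here. The line, the lists and the naming rule were chosen with earlier results of these data known. Named genes were every Kat2a and Kat2b probe set, the 15 largest rises and falls called in line A, genes staying in line A, the 10 strongest recurring genes per direction, opposed genes and, per list, the 4 called members of smallest p with 2 more of called interaction at most. Fmod is given at 2 probe sets by that rule. Most genes are given at 1 probe set, and their other probe sets were not always called. Between 37 and 62 probe sets held identical values in any 2 arrays, so no array was a copy of another. Alternatives were a level filter, 2 rescalings, other variance models, a fit over all 6 arrays, a replicate block and leaving out each line A array.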

Additional observations from a re-analysis of the deposited data

Results flagged for a closer look

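For 27 probe sets the change of the single line B pair differed from that of line A by the interaction test (limma, adjusted p under 0.05). Values here are the line B change minus the line A change (log2); line B has 1 array per genotype, so its own spread does not enter. Of the 27, 21 were also called within line A.

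Interferon-linked genes that rose less in line B were Xaf1 (-3.53), both Iigp1 probe sets (-3.06 and -3.23), Gm4951 (-3.09), Dhx58 at 1 of its 3 probe sets (-1.93) and Ifit1 (-1.74). The unnamed probe sets 1422140_at (-2.45) and 1451567_a_at (-1.93) also rose in line A and less in line B.

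Genes that fell in line A and less or not in line B were Fmod at 5 of its 6 probe sets (2.99, 2.67, 2.32, 2.00 and 1.94), Gprin3 at both (3.71 and 2.06), Sema3d (3.11), Sorbs2 (2.23) and Ccn3 (1.60). The unnamed probe set 1448194_a_at changed by -3.68 in line A and -1.59 in line B (2.09).

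The others changed more in line B. Serpinb2, a plasminogen activator inhibitor, rose by 0.82 in line A and was higher by 3.06 in line B (2.24), and Lum had a larger fall in line B (-2.32). The remaining 6 were not called in line A. They were Crabp1, a retinoic acid binding protein (-2.34, from 12.17 to 9.59 in line B), Lrrc15, a fibroblast membrane protein (-2.21), Fer1l6 (1.78), Hivep3 (1.80), Cebpd (1.06) and the unnamed 1460259_s_at (1.40). Serpinb2, Crabp1, Lrrc15, Fer1l6 and Hivep3 lie outside the naming rule and were chosen after their values were seen.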

How the results depend on the processing

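The calls rest on the spread between duplicates of 1 line. Against 2190 calls (1044 higher, 1146 lower), eBayes without a trend gave 985 (491 and 494), and the test without moderation gave 0 (0 and 0, and 0 past 2-fold, with 4996 at an unadjusted p under 0.05). Leaving out 1 array gave 917 to 1372 calls, 424 to 628 higher and 493 to 831 lower, and 440 to 552 past 2-fold; without GCN5+/- replicate 1 the split was 541 higher and 831 lower. The level filter, both rescalings and the fit over all 6 arrays gave 1763 to 2282. Why the counts moved was not tested. Settings with 1 array left out have fewer arrays and residual degrees of freedom, while eBayes without a trend uses the same arrays as the main fit. With the replicate number as a block there were 5703 calls (2574 higher, 3129 lower), which include all 2190. The labels do not say whether the replicate numbers pair the arrays. Duplicate differences of the genotypes correlated at 0.366 over probe sets, and with 2 pairs this does not show that the numbers pair the arrays. Whether arrays of the same number shared a batch was not tested. The probe sets called past 2-fold numbered 421 to 498 under the other settings, the block included. The share of calls with the same sign in line B was 81.9% (block) to 90.6%. Against 27 interaction calls, the totals were 13 with the level filter (19 of the 27 entered), 11 with quantile normalization, 2 without a trend, 750 with the replicate block and 21 to 54 with 1 array left out, the most without GCN5+/- replicate 1. Of the 27 themselves, all were kept with the block and 17 to 26 with 1 array left out. Xaf1 and 1 Fmod probe set were called under all 9 of these settings. Of 170 probe sets named by rule, none changed direction; 160 lost the call without moderation, 54 without a trend, 12 with medians subtracted, 2 with quantile normalization and 26 to 32 with 1 array left out. Calls lost without a trend included bright genes with small changes, among them Csf1, Cycs and Mcm6 (limma adjusted p = 0.0959, 0.121 and 0.132). Signals near the low end, as for interferon ligands, limit what falls can show.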

Other observations

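Several genes on none of the interferon lists held the response element core before their start, rose in line A and were higher in line B; they were chosen after their values were seen. Trim30a, of the tripartite motif family, went from 9.08 and 8.92 in GCN5+/- to 12.28 and 12.17 in GCN5-/- arrays of line A, a rise of 3.23 ± 0.11, and was higher by 1.56 in line B. The related Trim30d rose by 1.84 ± 0.13 and was higher by 2.30 in line B, and its element printed with 5 bases on each side has the same letters as that of Trim30a, actgaGAAAAAGAAActaaa. Slfn8, of the Schlafen family, rose by 2.65 ± 0.18 and was higher by 2.27, and Mndal, of the p200 family, rose by 2.33 ± 0.13 at 1 of its probe sets and was higher by 1.84. Akr1c14, a steroid dehydrogenase, rose by 1.27 ± 0.14 and was higher by 1.30 in line B.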
